A study of Mus musculus with 6 samples.

Results

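The 10 imprinted growth genes were H19, Igf2, Peg3, Peg10, Mest, Plagl1, Dlk1, Meg3, Grb10 and Cdkn1c, each found by its exact symbol among the 52459 rows of the deposited count table. All 10 passed the low-count filter, which left 14130 of those rows for testing. The samples were mouse liver tumours of the genotype MYC-LAP-tTA, in which LAP is a liver promoter that drives the tetracycline transactivator and the transactivator keeps a MYC transgene on. All 6 samples carry this genotype, and no normal liver is among them. In 3 samples MYC had been inactivated for 4 days (MYC-Off), and in 3 MYC was active (MYC-On). The labels name neither the agent used for inactivation nor the strain, age or sex of the mice. Nor do they tell whether each sample is a different mouse, so a p-value here reflects variation among samples that could be technical in part. MYC-Off 1, 2 and 3 and MYC-On 1, 2 and 3 below are the libraries by the replicate numbers of their titles.

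An imprinted gene is expressed mainly from the copy inherited from 1 parent. In the mouse, Igf2, Dlk1, Mest, Peg3, Peg10 and Plagl1 are expressed from the paternal copy, and H19, Meg3, Cdkn1c and most Grb10 transcripts outside the nervous system from the maternal copy. Many of these genes act on growth before birth, are abundant in fetal liver and fall in the liver after birth, and several return in liver tumours. Read counts per gene do not separate the parental copies, so what follows concerns the total RNA of each gene.

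Counts ranged from 16292718 to 19265623 reads per library. Values are read counts scaled to a common library size (CPM) scaled by the trimmed mean of M-values (TMM), on which 1 read was worth 0.0408 to 0.0767 CPM. Log2 fold changes are MYC-Off minus MYC-On with their standard error (SE), and adjusted p-values are those of the quasi-likelihood test of edgeR, corrected by Benjamini and Hochberg's method over every tested gene, with a threshold of 0.05. Myc, the switched gene, stood at 74.7, 10.2 and 18.7 CPM in MYC-Off 1, 2 and 3, against 778, 1016 and 852 CPM in MYC-On 1, 2 and 3 (log2 fold change -4.67, SE 0.80, adjusted p = 0.0035). The transgene's reads and those of the mouse gene are not separated on that row. The hepatocyte markers Alb, Ttr and Apoa1 had reads in every library, with Alb at 58951 to 203249 CPM in MYC-Off and 827 to 2641 CPM in MYC-On. The raw-file label of MYC-Off 3 ends in the number 22, while those of the other libraries run from 40 to 44. What that number stands for is not given.

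Start regions of members were searched for motifs of MYC and of the member PLAGL1. Some of them are printed, with the microRNA within the most abundant member. Whether MYC or PLAGL1 acts at these start regions was not tested. RefSeq (GRCm38.p6, the assembly of mm10) gave 14 windows for 7 of the 10 members, each with 250 bases before and 50 bases after an annotated start. H19, Peg10 and Cdkn1c had no window and were not searched. The windows were searched for CACGTG, the E-box that MYC binds with MAX, and for GGGGCCCC, the core that PLAGL1 binds. Each motif reads the same on both strands and neither overlapped the other. The E-box was in 1 member window, that of Plagl1, and in 7.15% of all 32851 windows. The PLAGL1 core was in 1 member window, that of Peg3, and in 1.08% of all windows. The third window printed is 1 of several for Mest, the only member called higher in MYC-Off, and no Mest window held either motif. Capitals mark the motif, and each window runs 5′ to 3′ along its gene's strand. The motif begins at position -182 relative to the annotated start in Plagl1 and at position -201 in Peg3.
Plagl1, chr10:13090582-13090881, plus strand: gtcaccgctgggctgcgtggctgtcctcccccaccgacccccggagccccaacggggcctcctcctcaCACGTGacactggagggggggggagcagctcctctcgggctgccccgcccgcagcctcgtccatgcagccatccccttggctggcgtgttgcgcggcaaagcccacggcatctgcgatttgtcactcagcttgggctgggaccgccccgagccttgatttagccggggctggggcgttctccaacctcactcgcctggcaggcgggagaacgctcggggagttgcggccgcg
Peg3, chr7:6730370-6730669, minus strand: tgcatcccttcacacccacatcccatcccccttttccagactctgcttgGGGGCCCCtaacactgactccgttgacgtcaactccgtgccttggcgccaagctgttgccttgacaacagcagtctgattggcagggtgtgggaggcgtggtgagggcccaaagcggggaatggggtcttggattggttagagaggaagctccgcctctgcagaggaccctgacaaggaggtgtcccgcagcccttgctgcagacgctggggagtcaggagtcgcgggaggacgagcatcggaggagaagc
Mest, chr6:30737800-30738099, plus strand: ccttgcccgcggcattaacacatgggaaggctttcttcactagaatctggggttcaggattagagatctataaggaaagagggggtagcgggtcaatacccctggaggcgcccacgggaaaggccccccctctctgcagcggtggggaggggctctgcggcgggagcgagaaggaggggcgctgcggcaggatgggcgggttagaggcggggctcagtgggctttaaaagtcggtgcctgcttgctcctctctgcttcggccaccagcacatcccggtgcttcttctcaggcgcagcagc
H19 is also the host of miR-675, whose mature arms are given with the seed (bases 2 to 8) in capitals. The row for the microRNA gene itself had 0 reads over the 6 libraries, and the mature forms were not measured.
mmu-miR-675-5p: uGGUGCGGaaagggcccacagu
mmu-miR-675-3p: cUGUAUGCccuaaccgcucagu

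Of the 10 members, Mest rose and Cdkn1c fell in MYC-Off, and the other 8 did not pass the test. Among all tested genes 52.7% were called, 29.9% higher and 22.8% lower, so 1 member of 10 in each direction is below the background in both. The groups did not overlap for 2 of the 10 members, against 63.1% of all tested genes (33.2% higher and 29.8% lower in MYC-Off). A further member, Plagl1, was called higher with DESeq2 (31.4% of all genes higher), with no low-count filter (16.3%), with at least 1 CPM in 3 libraries (29.9%) and without MYC-Off 3 (29.3%). Without MYC-Off 1, Peg3 and Meg3 joined Mest among the members higher (27.9% of all genes). Peg10 was called lower with DESeq2 (27.2% of all genes lower), with library size only (37.6%) and with library size counted without the 20 most abundant genes (30.2%), and it took the place of Cdkn1c without MYC-On 3. No member was lower without MYC-On 1 (15.7%). The median log2 fold change of the members was 1.04 and that of all tested genes 0.18. Scaling matters for such calls: 56.7% of all calls were higher in MYC-Off, against 32.2% with scaling by library size only and 42.8% with library size counted without the 20 most abundant genes, and the median of all tested genes moved to -0.57 and -0.22. Between the highest and the lowest MYC-Off library, 3 members differed by more than the 5.89-fold that marks the 90th percentile of tested genes with reads in every library, and in MYC-On 3 members exceeded the corresponding 2.63-fold.

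**Figure D1:**
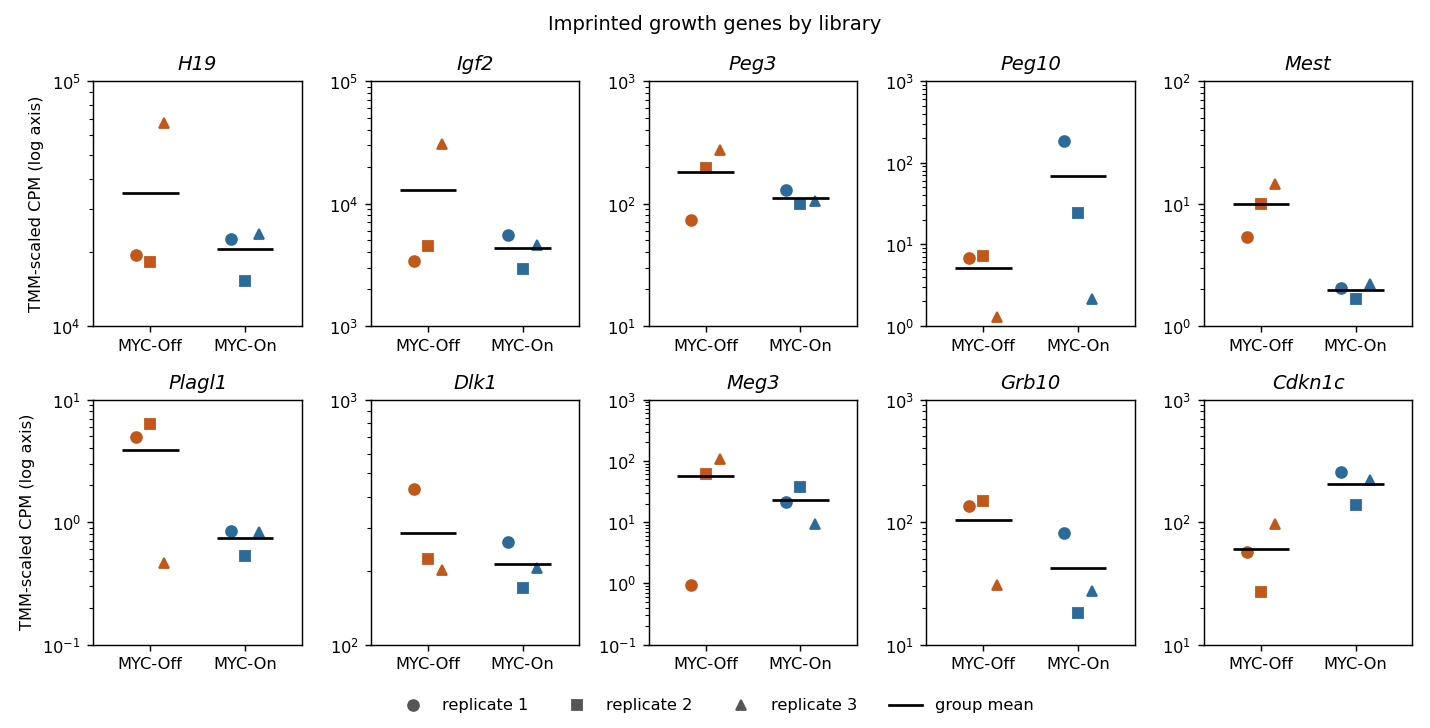
TMM-scaled CPM (log axis) of the 10 members in each library, with MYC-Off left and MYC-On right in each panel; symbols give the replicate number and bars the group mean. Mest is higher in every MYC-Off library and Cdkn1c lower, while the groups overlap for the other 8 members.

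Igf2 encodes the fetal growth factor IGF2, a ligand of the IGF1 and insulin receptors. Its gene (chromosome 7, 142650766 to 142666816, minus strand, mm10) had 3405, 4529 and 30474 CPM in MYC-Off 1, 2 and 3, against 5519, 2946 and 4546 CPM in MYC-On 1, 2 and 3. MYC-Off 3 stood far above the other 5 libraries, and MYC-Off 1 and 2 lay within the range of MYC-On. The mean was 12803 ± 15314 CPM in MYC-Off and 4337 ± 1299 CPM in MYC-On (SD, n = 3 each), and the difference did not pass (log2 fold change 1.56, SE 0.89, adjusted p = 0.173). In the annotation used here, 3596 bp of Igf2 exon are shared with Gm49394 on the same strand, which had no row under that symbol in the deposited counts. Another 98 bp are shared with Igf2os on the opposite strand, which had 4925 reads in all. The annotation and strand setting of the counting are not given, so the Igf2 count is uncertain over these stretches. Without MYC-Off 3 the log2 fold change of Igf2 was -0.23 (adjusted p = 0.705).

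H19, a long noncoding RNA whose gene lies 72.6 kb from that of Igf2 (chromosome 7, 142575529 to 142578143, minus strand), was the most abundant member in every library. It had 19441, 18226 and 67287 CPM in MYC-Off 1, 2 and 3, against 22614, 15290 and 23810 CPM in MYC-On 1, 2 and 3. As for Igf2, MYC-Off 3 was the highest library and the other 2 MYC-Off libraries lay within the MYC-On range. The difference did not pass (log2 fold change 0.77, SE 0.65, adjusted p = 0.351), and it stood at -0.21 without MYC-Off 3 and at -0.045 when libraries were scaled by size only. H19 alone took 1.93%, 1.24% and 4.56% of the reads of MYC-Off 1, 2 and 3, against 2.92%, 2.07% and 2.97% in MYC-On 1, 2 and 3. By reads it ranked 5, 8 and 2 among all genes of MYC-Off 1, 2 and 3, against 1, 1 and 3 in MYC-On 1, 2 and 3. Igf2 ranked 24, 39 and 3 in MYC-Off 1, 2 and 3, against 8, 9 and 8 in MYC-On 1, 2 and 3. Per kb of exon, H19 averaged 14221 ± 11374 CPM in MYC-Off and 8362 ± 1875 CPM in MYC-On, and Igf2 2237 ± 2676 CPM in MYC-Off and 758 ± 227 CPM in MYC-On (SD, n = 3 each). By these ranks both genes were among the 10 with the most reads in each MYC-On library.

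**Figure D2:**
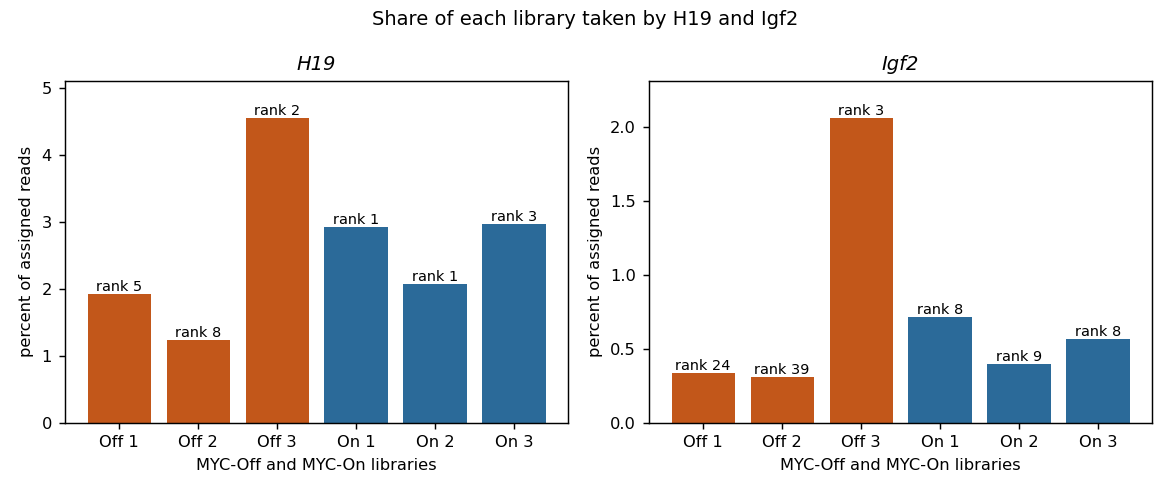
Percent of assigned reads taken by H19 (left) and Igf2 (right) in each MYC-Off and MYC-On library, with the gene's rank by reads above each bar. MYC-Off 3 has the largest share of both, 4.56% for H19 and 2.06% for Igf2.

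Igf2 and H19 share enhancers and an imprinting control region, so their ratio within a library was taken, which needs no scaling between libraries. There were 0.175, 0.248 and 0.453 Igf2 reads per H19 read in MYC-Off 1, 2 and 3, against 0.244, 0.193 and 0.191 in MYC-On 1, 2 and 3. MYC-Off 1 was the lowest and MYC-Off 3 the highest of the 6 libraries. The mean log2 ratio was -1.89 ± 0.69 in MYC-Off and -2.27 ± 0.20 in MYC-On (SD, n = 3 each; two-sided exact permutation p = 0.6, where 0.1 is the smallest value that 3 against 3 allows). Over the 6 libraries, the tested genes with the most similar log2 CPM profile to Igf2 were Rnf19a, Iqca and Serpina6 (Pearson r of 0.995, 0.994 and 0.993), and to H19 Dusp14, Slc23a3 and Smim22 (0.992, 0.992 and 0.990). These 6 genes were also highest in MYC-Off 3, and the values describe 6 libraries that differ in group.

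Dlk1 encodes a membrane protein of the Delta family that marks hepatoblasts of the fetal liver. Dlk1 (chromosome 12, 109452823 to 109463336, plus strand) had 432, 224 and 202 CPM in MYC-Off 1, 2 and 3, against 263, 170 and 205 CPM in MYC-On 1, 2 and 3. MYC-Off 1 was the highest library, and MYC-Off 2 and 3 lay within the MYC-On range. Its log2 fold change was 0.43 (SE 0.37, adjusted p = 0.363), -0.15 without MYC-Off 1 and -0.20 when libraries were scaled by size only. Dlk1 was the least variable member in MYC-Off, with 2.14-fold between its highest and lowest libraries.

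Meg3, a long noncoding RNA expressed from the maternal copy 77.7 kb downstream of Dlk1 (chromosome 12, 109541001 to 109571726, plus strand), was the member with the widest span within MYC-Off. It had 0.932, 61.9 and 106 CPM (17, 811 and 1383 reads) in MYC-Off 1, 2 and 3, against 21.4, 36.8 and 9.25 CPM in MYC-On 1, 2 and 3. MYC-Off 1 was far below every other library and MYC-Off 2 and 3 were above all MYC-On libraries, a 114-fold span within MYC-Off. The log2 fold change of 1.32 (SE 1.21, adjusted p = 0.386) turned to -0.38 with limma-voom, and without MYC-Off 1 it was 1.76 (adjusted p = 0.0345). Rian and Mirg, noncoding RNAs next to Meg3 and named here after their values were seen, were also lowest in MYC-Off 1. Rian had 2.03, 36.7 and 33.5 CPM in MYC-Off 1, 2 and 3, against 28.6, 27.5 and 14.3 CPM in MYC-On 1, 2 and 3. Mirg had 0.219, 4.05 and 6.82 CPM in MYC-Off 1, 2 and 3, against 4.40, 5.6 and 1.13 CPM in MYC-On 1, 2 and 3. In the same library Dlk1 was at its highest, so there were 463, 3.61 and 1.90 Dlk1 reads per Meg3 read in MYC-Off 1, 2 and 3, against 12.3, 4.62 and 22.2 in MYC-On 1, 2 and 3. The mean log2 ratio was 3.85 ± 4.29 in MYC-Off and 3.43 ± 1.14 in MYC-On (SD, n = 3 each; two-sided exact permutation p = 1). The difference of 0.42 turned to -2.04 without MYC-Off 1 and to -0.19 without MYC-On 2.

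**Figure D3:**
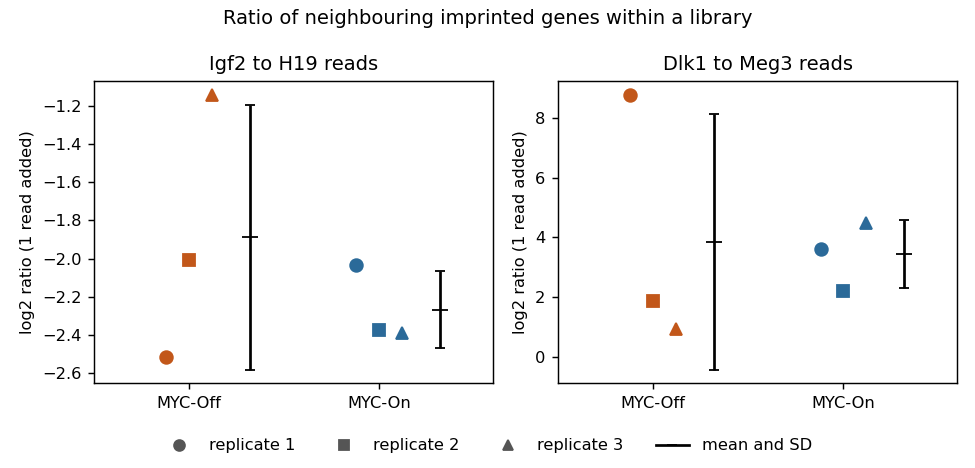
Log2 ratio of reads within a library for Igf2 to H19 (left) and Dlk1 to Meg3 (right), MYC-Off left of MYC-On, with symbols for the replicate number and the mean and SD beside each group. The Dlk1 to Meg3 ratio of MYC-Off 1 lies above all other libraries, and the groups overlap in both panels.

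Cdkn1c encodes p57, an inhibitor of cyclin-dependent kinases that restrains growth. Cdkn1c (chromosome 7, 143458339 to 143461050, minus strand) had 57.1, 26.7 and 95.7 CPM in MYC-Off 1, 2 and 3, against 254, 139 and 220 CPM in MYC-On 1, 2 and 3. All MYC-Off libraries lay below all MYC-On libraries. The mean was 59.8 ± 34.6 CPM in MYC-Off and 204 ± 59.2 CPM in MYC-On (SD, n = 3 each), and the log2 fold change was -1.77 (SE 0.48, adjusted p = 0.0185). The call was lost without MYC-On 1 (adjusted p = 0.0567) or MYC-On 3 (adjusted p = 0.054), with changes of -1.64 and -1.77.

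Cdkn1c belongs to the imprinted domain of the noncoding RNA Kcnq1ot1. Of 8 tested neighbours in that domain 4 were higher and 2 lower in MYC-Off, where 29.9% of all tested genes were higher and 22.8% lower. Phlda2, a maternally expressed gene that restrains placental growth, had 2.96, 2.75 and 8.05 CPM in MYC-Off 1, 2 and 3, against 70.2, 52 and 57.9 CPM in MYC-On 1, 2 and 3 (log2 fold change -3.71, SE 0.47, adjusted p = 0.00135). Cd81, a tetraspanin, had 222, 219 and 177 CPM in MYC-Off 1, 2 and 3, against 56.8, 65.8 and 75.6 CPM in MYC-On 1, 2 and 3 (1.64, SE 0.23, adjusted p = 0.00183). Slc22a18, Kcnq1 and Osbpl5, named after their values were seen, rose as well (2.98, 3.27 and 3.34, SE 0.61, 0.78 and 0.87). Nap1l4, named likewise, fell (-0.92, SE 0.22). Kcnq1 rested on 127, 13 and 60 reads in MYC-Off 1, 2 and 3, against 6, 13 and 10 in MYC-On 1, 2 and 3. Osbpl5 rested on 255, 81 and 15 reads in MYC-Off 1, 2 and 3, against 12, 20 and 15 in MYC-On 1, 2 and 3. The domain's noncoding RNA Kcnq1ot1 did not pass (-0.82, SE 0.45, adjusted p = 0.161).

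**Figure D4:**
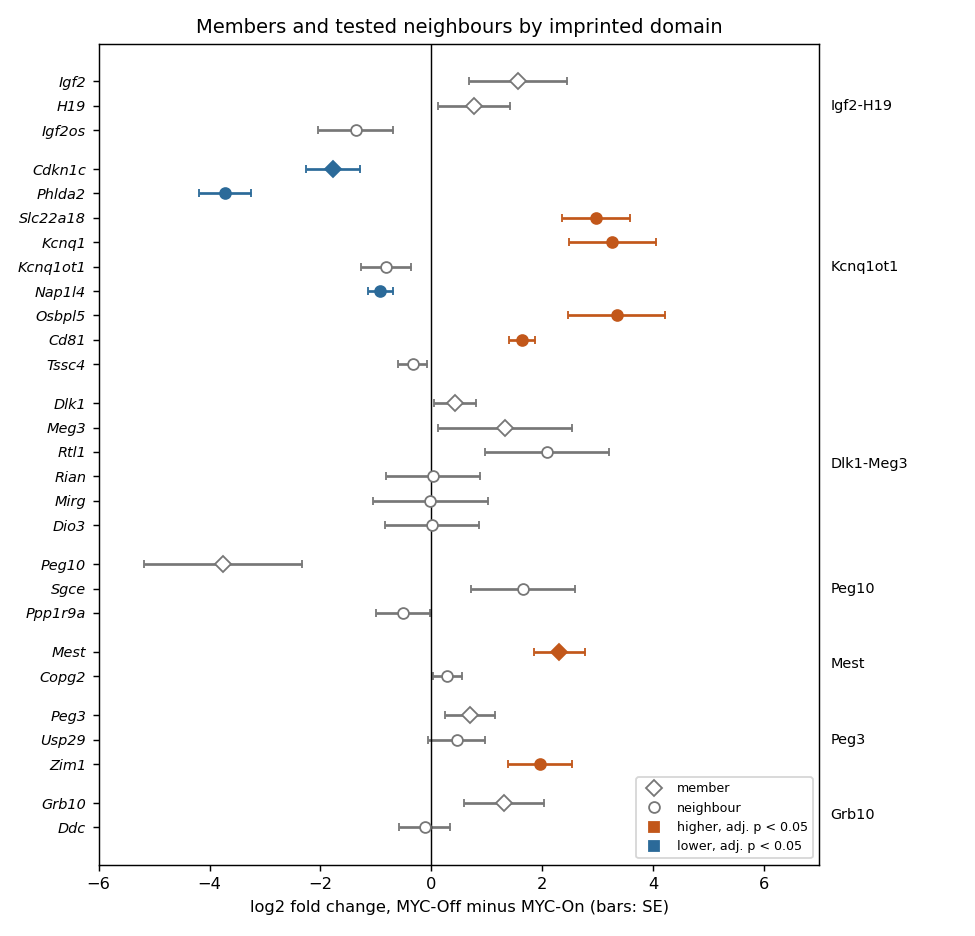
Log2 fold change (MYC-Off minus MYC-On, bars are SE) of the members (diamonds) and their tested neighbours (circles), grouped by imprinted domain, with filled symbols for an adjusted p under 0.05. Plagl1 has no neighbour in the list and is not drawn. Among filled symbols of the Kcnq1ot1 domain, Cdkn1c, Phlda2 and Nap1l4 lie below 0 and 4 genes above it.

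Mest encodes a membrane enzyme of the alpha/beta hydrolase family that is abundant in the embryo and in mesenchymal tissue. Mest (chromosome 6, 30723547 to 30748465, plus strand) had 5.37, 9.85 and 14.3 CPM in MYC-Off 1, 2 and 3, against 2.04, 1.67 and 2.21 CPM in MYC-On 1, 2 and 3. All MYC-Off libraries were above all MYC-On libraries, at low counts of 98 to 187 reads in MYC-Off and 41 to 46 reads in MYC-On. The log2 fold change was 2.31 (SE 0.46, adjusted p = 0.006), and the call was kept in all 14 alternative fits, from 1.5 to 2.46. Exons of Mest share 912 bp with Copg2 on the opposite strand, and the strand setting of the counting is not given. Copg2, named after its values were seen, had 21.3, 33.2 and 22.1 CPM in MYC-Off 1, 2 and 3, against 21.7, 23 and 18 CPM in MYC-On 1, 2 and 3, and did not pass (0.29, SE 0.26, adjusted p = 0.379). In tissue RNA a change in the number of cells of a type and in the RNA per cell cannot be told apart. Of 12 tested markers of stellate cells and fibroblasts 11 rose, and the summed level of the 15 listed was 3053, 1630 and 1165 CPM in MYC-Off 1, 2 and 3, against 190, 179 and 210 CPM in MYC-On 1, 2 and 3. Within MYC-Off that sum ran in the opposite order to Mest, but its genes did not share 1 order. Col1a1 had 192, 117 and 428 CPM and Col1a2 had 181, 126 and 222 CPM in MYC-Off 1, 2 and 3, both highest in MYC-Off 3 as Mest was, while Col3a1 had 685, 411 and 236 CPM. Hand2, 1 of the 15, was at 0 in MYC-Off 3. Lrat and Reln, also in that list and named after their values were seen, lay within the MYC-On range in that library. Lrat had 42.7, 42.2 and 0.613 CPM and Reln 34.3, 104 and 0.307 CPM in MYC-Off 1, 2 and 3. In MYC-On, Lrat had 0.408 to 1.28 CPM and Reln 0.0408 to 0.311 CPM. The other markers listed for these cells were above all MYC-On libraries in MYC-Off 3. The part of these cells in the Mest result was not tested.

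Peg10 is derived from a retrotransposon and is needed for the placenta. Peg10 (chromosome 6, 4747306 to 4760517, plus strand) had 6.85, 7.18 and 1.30 CPM in MYC-Off 1, 2 and 3, against 183, 24.1 and 2.17 CPM in MYC-On 1, 2 and 3. The MYC-On libraries spanned 84.4-fold, and MYC-On 3 was below MYC-Off 1 and 2. The log2 fold change of -3.76 (SE 1.43, adjusted p = 0.0592) did not pass, and it was -1.42 (adjusted p = 0.317) without MYC-On 1. It passed with DESeq2 (-3.84, adjusted p = 0.00231). Sgce, which shares the Peg10 promoter region and is named after its values were seen, had 15.7, 17.6 and 3.14 CPM in MYC-Off 1, 2 and 3, against 8.98, 1.51 and 1.13 CPM in MYC-On 1, 2 and 3. It was highest in MYC-On 1 within its group, as Peg10 was, but its change between groups was 1.65 (SE 0.94, adjusted p = 0.175).

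Plagl1 encodes a zinc finger transcription factor that regulates other imprinted genes in the mouse, and its start window is the one with the E-box printed above. Plagl1 (chromosome 10, 13060504 to 13131694, plus strand) had 91, 82 and 6 reads (4.99, 6.26 and 0.460 CPM) in MYC-Off 1, 2 and 3, against 19, 13 and 17 reads (0.845, 0.531 and 0.837 CPM) in MYC-On 1, 2 and 3. MYC-Off 1 and 2 were above all MYC-On libraries and MYC-Off 3 below them. The log2 fold change was 2.40 (SE 0.87, adjusted p = 0.0508), which did not pass. Without MYC-Off 3 it was 2.83 (adjusted p = 0.00436), and it passed with DESeq2 (2.33, adjusted p = 0.0165).

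Peg3 encodes a large zinc finger protein that restrains cell growth in culture, and its start window holds the PLAGL1 core printed above. Peg3 (chromosome 7, 6703892 to 6730431, minus strand) had 73.8, 196 and 272 CPM in MYC-Off 1, 2 and 3, against 129, 98.4 and 105 CPM in MYC-On 1, 2 and 3. MYC-Off 1 lay below and MYC-Off 2 and 3 above all MYC-On libraries. Its change between groups on the log2 scale was 0.70 (SE 0.45, adjusted p = 0.223), 0.93 without MYC-Off 1 (adjusted p = 0.0164) and -0.15 with scaling by library size only. Its neighbour Zim1, named after its values were seen, was called higher (1.97, SE 0.57, adjusted p = 0.0238) at 1.86 to 6.29 CPM in MYC-Off and 0.738 to 1.10 CPM in MYC-On.

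Grb10 encodes an adaptor that binds the insulin and IGF1 receptors and dampens their signal. Grb10 (chromosome 11, 11930508 to 12038683, minus strand) had 136, 148 and 30.6 CPM in MYC-Off 1, 2 and 3, against 81.1, 17.9 and 27.2 CPM in MYC-On 1, 2 and 3. MYC-Off 1 and 2 were above all MYC-On libraries, while MYC-Off 3 lay within their range. Its log2 fold change of 1.31 (SE 0.72, adjusted p = 0.163) did not pass.

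The MYC-Off libraries therefore differed in which members stood outside the MYC-On range. MYC-Off 1 had 4 members above it (Mest, Plagl1, Dlk1 and Grb10) and 3 below it (Peg3, Meg3 and Cdkn1c). MYC-Off 2 had 5 above it (Peg3, Mest, Plagl1, Meg3 and Grb10) and Cdkn1c below it. MYC-Off 3 had 5 above it (H19, Igf2, Peg3, Mest and Meg3) and 3 below it (Peg10, Plagl1 and Cdkn1c). Of all tested genes, 86.9%, 86.6% and 87.0% lay outside that range in MYC-Off 1, 2 and 3.

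**Figure D5:**
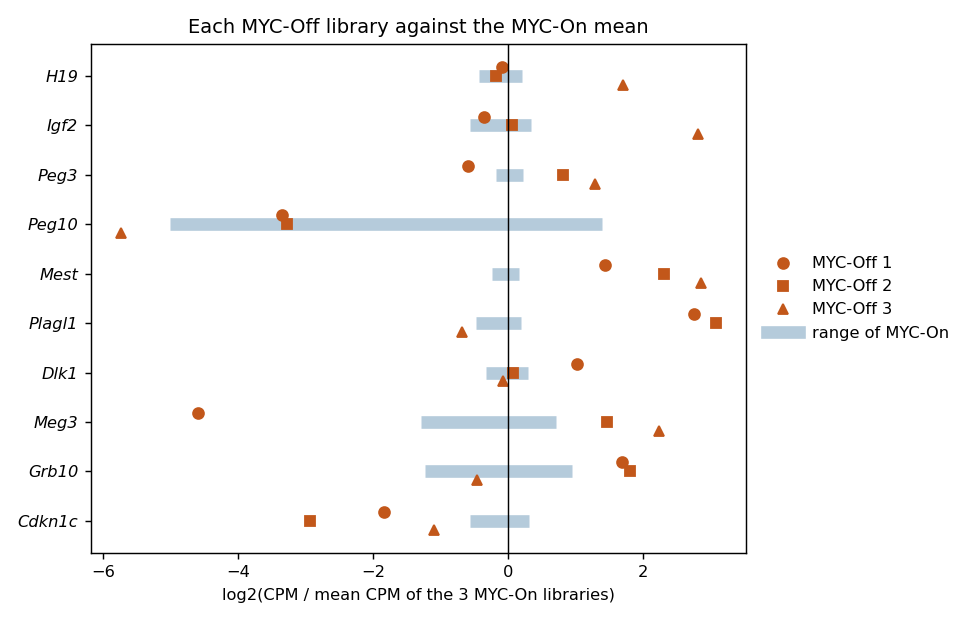
Log2 ratio of each MYC-Off library to the mean of the 3 MYC-On libraries for the 10 members, with the range of the MYC-On libraries as a bar. Mest and Cdkn1c lie outside the bar on 1 side in every MYC-Off library, and Peg3, Meg3 and Plagl1 lie on opposite sides of it in different MYC-Off libraries.

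Genes that act with IGF2 and GRB10 were listed alongside the members. Of 19 tested, 11 were higher and 4 lower in MYC-Off, with a median log2 fold change of 1.21 against 0.18 for all tested genes, of which 29.9% were higher and 22.8% lower. Igf2r, an imprinted receptor that clears IGF2, fell: it had 95.8, 92.3 and 81.8 CPM in MYC-Off 1, 2 and 3, against 390, 465 and 273 CPM in MYC-On 1, 2 and 3 (log2 fold change -2.06, SE 0.29, adjusted p = 0.00183). Igf2bp3, an RNA-binding protein of Igf2 mRNA, also fell, to 16.7 ± 5.19 CPM in MYC-Off against 61.4 ± 8.93 CPM in MYC-On (SD, n = 3 each; -1.88, SE 0.28, adjusted p = 0.00218). Of the same family and named after their values were seen, Igf2bp1 fell (-4.39, SE 1.03, adjusted p = 0.0109) and Igf2bp2 rose (3.03, SE 0.99, adjusted p = 0.0362). Igf2bp2 rested on 40, 24 and 13 reads in MYC-Off 1, 2 and 3, against 0, 3 and 10 in MYC-On 1, 2 and 3. Igfbp7, a secreted IGF-binding protein, rose to 349 ± 182 CPM in MYC-Off against 25.4 ± 8.56 CPM in MYC-On (3.78, SE 0.47, adjusted p = 0.00129). Pik3ca, a catalytic subunit of PI3 kinase, rose by 1.05 (SE 0.20, adjusted p = 0.00474), and by 0.33 with scaling by library size only, which did not pass (adjusted p = 0.359), or by 0.67 with the 20 most abundant genes left out of the library size (adjusted p = 0.0575). Igf1r, the receptor through which IGF2 signals, was named after its values were seen and stood at 6.64 ± 3.46 CPM in MYC-Off and 1.29 ± 0.247 CPM in MYC-On (2.36, SE 0.52, adjusted p = 0.00858).

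Factors that maintain or read imprints were listed together with Zhx2 and Zbtb20, repressors of fetal liver genes, and most of the list fell. Of 18 tested, 14 were lower and 3 higher in MYC-Off, with a median of -1.15, against 3221 lower and 4222 higher of all 14130 tested genes. Uhrf1 and Dnmt1, which copy DNA methylation at replication, changed by -4.00 (SE 0.31, adjusted p = 0.000805) and -2.46 (SE 0.35, adjusted p = 0.00189). Ezh2, a histone methyltransferase, changed by -2.02 (SE 0.24) and Cbx1, a heterochromatin protein, by -1.32 (SE 0.19). The 3 that rose were Zbtb20, Zhx2 and Zfp57, named because they are the whole of that count. Zfp57 rose at low counts, with 34, 11 and 11 reads in MYC-Off 1, 2 and 3, against 3, 9 and 6 reads in MYC-On 1, 2 and 3 (2.14, SE 0.61, adjusted p = 0.0222). Zhx2, which represses H19 and Afp in mouse liver after birth, had 19.9, 27.3 and 12.7 CPM in MYC-Off 1, 2 and 3, against 5.82, 6.86 and 5.07 CPM in MYC-On 1, 2 and 3 (1.75, SE 0.35, adjusted p = 0.00611). Zbtb20, a repressor of Afp, had 47.5, 244 and 42.6 CPM in MYC-Off 1, 2 and 3, against 3.20, 4.04 and 1.43 CPM in MYC-On 1, 2 and 3 (5.26, SE 0.86, adjusted p = 0.003).

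In the list of fetal liver genes 6 of 13 tested were higher and 5 lower in MYC-Off (median 1.86), against 29.9% higher and 22.8% lower among all tested genes. Gpc3 and Cd24a rose by 6.16 (SE 0.44, adjusted p = 0.000805) and 6.20 (SE 0.53, adjusted p = 0.000805), and Sox9 by 6.05 at 4.88 to 6.34 CPM in MYC-Off and 0 to 0.133 CPM in MYC-On. Hmga1 fell, to 12.3 ± 9.53 CPM in MYC-Off against 181 ± 22.6 CPM in MYC-On (-3.88, SE 0.55, adjusted p = 0.00188). The rest of the 5 that fell were Trim71 (-4.76, SE 0.84), Lin28a (-3.95, SE 1.05), Bex1 (-1.76, SE 0.47) and Bex2 (-1.41, SE 0.42). Lin28a rested on 10, 0 and 1 reads in MYC-Off 1, 2 and 3, against 44, 155 and 51 reads in MYC-On 1, 2 and 3. Afp, which like H19 is silenced in liver after birth and is named after its values were seen, had 16096, 13879 and 10836 CPM in MYC-Off 1, 2 and 3, against 3565, 2375 and 3750 CPM in MYC-On 1, 2 and 3 (2.07, SE 0.44, adjusted p = 0.00742). MYC-Off 3, the library with the most H19 and Igf2, had the least Afp of the MYC-Off libraries.

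Of the other imprinted genes listed, 13 of 35 tested were higher and 4 lower (median 0.39), against 29.9% higher and 22.8% lower among all tested genes, so the share called was near the background. Besides Phlda2, Igf2r and Cd81, the rule for naming gave Peg13, a noncoding RNA, at 45.5, 18.4 and 21.2 CPM in MYC-Off 1, 2 and 3, against 3.16, 2.57 and 4.04 CPM in MYC-On 1, 2 and 3 (3.12, SE 0.44, adjusted p = 0.00182). Markers of other cells rose with these changes in tissue RNA. Among tested markers, 9 of 10 rose for hepatocytes, 9 of 11 for endothelium, 10 of 12 for macrophages, 8 of 9 for lymphocytes and 8 of 8 for erythroid cells. For cholangiocytes 3 of 9 rose (Sox9, Prom1 and Spp1) and Krt7 fell. Among all tested genes 29.9% were higher. Summed levels were 474.7 to 998 CPM in MYC-Off and 95.6 to 116 CPM in MYC-On for endothelium, and 2116 to 8519 CPM in MYC-Off and 605 to 1170 CPM in MYC-On for macrophages. The endothelial markers Clec4g and Egfl7, named after their values were seen, did not rise in every MYC-Off library. Clec4g had 18.5, 47.7 and 0.0767 CPM in MYC-Off 1, 2 and 3, against 0.0817 to 0.400 CPM in MYC-On. Egfl7 lay within the MYC-On range in MYC-Off 2 and 3. For hepatocytes the sums were 86900, 158262 and 257648 CPM in MYC-Off 1, 2 and 3, in the order of Mest, against 4197 to 8378 CPM in MYC-On. Alb alone was at 58951, 105318 and 203249 CPM in MYC-Off 1, 2 and 3. The 10 hepatocyte markers, named here after their values were seen, did not share 1 order. Alb, Ttr, Apoa1, Serpina1a and Fgb rose from MYC-Off 1 to 3, while Apob, Cps1, Pck1, Tat and Hnf4a were highest in MYC-Off 2. Lymphocyte sums were 41.2 to 291 CPM in MYC-Off and 7.87 to 12.4 CPM in MYC-On, and in MYC-Off 3 Cd79a, Ms4a1 and Klrb1c were at 0. The macrophage marker Clec4f was also at 0 in MYC-Off 3. In that library Vsig4 (0.460 CPM) lay within the MYC-On range, and Marco (0.0767 CPM) and Timd4 (12.9 CPM) lay below it. These markers were named after their values were seen, and the other listed macrophage markers were above all MYC-On libraries there. Erythroid sums were 755 to 2344 CPM in MYC-Off and 31.9 to 93.4 CPM in MYC-On, and cholangiocyte sums 139 to 303 CPM in MYC-Off and 97.1 to 154 CPM in MYC-On. Hba-a2 and Epb42 were at 0 in some libraries, as were the cholangiocyte markers Sox9 and Prom1 in some MYC-On libraries. The part of any of these cells in the members' values was not tested.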

How the data were processed

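RNA of 6 mouse liver tumour samples was sequenced. Trimmomatic, STAR, Picard, featureCounts, DESeq2 and the build mm10 are named in the submitters' processing notes. Their versions, the gene annotation, the strand setting and the handling of multi-mapping reads are not known. The table deposited by the authors holds raw read counts per gene symbol, 1 column per sample, not normalized. In 26 rows a symbol had become a date and 2 rows repeat a symbol.

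Groups came from the sample titles. Counts were tested with edgeR 4.0.16 in R 4.3.3 (filterByExpr with minimum count 10 and minimum total 15, TMM scaling, robust quasi-likelihood fit), MYC-Off against MYC-On. SE is the fold change over the root of its F value. Coordinates and exon lengths came from GENCODE mouse release 21 on mm10, where 91.5% of rows matched 1 symbol. Ratios of neighbours had 1 read added and an exact permutation test (scipy 1.17.1). Libraries of a group differed from each other by more than sampling noise (lowest chi-square over degrees of freedom 29.1). Alternatives were DESeq2 size factors, DESeq2 1.42.0, limma-voom (limma 3.58.1), library size only, 2 other filters, a replicate block and leaving out each library, and, chosen after the data were seen, library size without the 20 most abundant genes.

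The members, the 11 lists and the tests were chosen with earlier results of these data known. Named genes are the 10 members, Myc and the 4 genes of each list with the smallest adjusted p (the first 3 of each marker list). The 3 genes most like Igf2 and H19 are named too. Where 5 or fewer genes of a list passed in a direction they could be named, and not all of them were. Exceptions are marked. Values of some single markers are not reported here. Figures were drawn with matplotlib 3.10.9.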

Additional observations from a re-analysis of the deposited data

How the results depend on the processing

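Mest was called higher in each of the 14 alternatives and Cdkn1c lower in 12 of them. The count of members called higher was 2 with no low-count filter, with at least 1 CPM in 3 libraries and with DESeq2, and 1 to 3 when a library was left out. The count called lower was 2 with library size only, with DESeq2 and with library size without the 20 most abundant genes, and 0 to 1 when a library was left out (0 without MYC-On 1). With library size only, the log2 fold change turned to -0.045 for H19, -0.15 for Peg3, -0.20 for Dlk1, -0.40 for Rnf19a and -0.12 for Iqca; Rnf19a was also -0.031 without the 20 most abundant genes. Meg3 was -0.38 with limma-voom. With a library left out, the change ran from -0.21 to 0.95 for H19, -0.23 to 1.86 for Igf2 and -0.15 to 0.56 for Dlk1. It ran from -0.088 to 0.42 for Rnf19a, -0.037 to 0.79 for Iqca, -0.16 to 2.87 for Serpina6, -0.40 to 2.03 for Dusp14, -0.44 to 1.5 for Slc23a3, -0.11 to 1.54 for Smim22 and -0.50 to 0.25 for the marker Epcam. The Dlk1 to Meg3 log2 ratio differed by -2.04 to 1.88 (-2.04 without MYC-Off 1, -0.19 without MYC-On 2). The causes were not tested. All calls numbered 7443, and 5123 to 7808 with a library left out.

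Same-numbered libraries did not deviate together (correlations -0.262, -0.168 and 0.040). The labels name no pairing, and these correlations cannot tell whether the numbers pair samples. With the replicate block 5763 genes were called, 1 member was higher (Mest, 2.22) and 1 lower (Cdkn1c, -1.91), and the log2 ratios differed by 0.38 for Igf2 to H19 and 0.42 for Dlk1 to Meg3. Plagl1 rests on 6 to 91 reads a library.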
